A study of Homo sapiens with 6 samples.

Results

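The genes described here are 10 genes of polyamine metabolism, taken by symbol from the table of 17297 genes, a rule that uses no measured value. They encode enzymes of synthesis (ODC1, AMD1, SRM, SMS), enzymes of catabolism (SAT1, SMOX, PAOX) and regulators of ornithine decarboxylase (OAZ1, OAZ2, AZIN1). All 10 symbols were rows of the table, and no row was dropped for low counts. The RNA came from LNCaP, a long-established line of human prostate cancer cells whose genotype is given as WT. The cells carried either the empty pBabe-puromycin vector (pBabe-vector) or the same vector with a wild-type GNA13 cDNA (pBabe-GNA13), and 1 stable line stands for each condition. GNA13 encodes Gα13, the α subunit of a heterotrimeric G protein. Each line was grown on plates for 48 h in RPMI with serum, and 3 libraries were made from it.

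Polyamines are small, positively charged molecules that bind nucleic acids. Ornithine decarboxylase (ODC1) turns ornithine into putrescine, and S-adenosylmethionine decarboxylase (AMD1) provides the aminopropyl groups that spermidine synthase (SRM) and spermine synthase (SMS) add to make spermidine and spermine. SAT1 acetylates spermidine and spermine so that they can be exported or oxidized by PAOX, while SMOX oxidizes spermine directly. Antizymes bind ornithine decarboxylase and send it to the proteasome, and the antizyme inhibitor AZIN1 binds antizyme in its place. Luminal cells of the prostate make and secrete very large amounts of spermine, and androgen is known to raise the RNA of synthesis genes in this tissue. Much of the control over ODC1, AMD1, SAT1 and the antizymes acts on translation and protein turnover, which RNA-seq does not measure.

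The libraries held between 33002160 and 40628970 counts. GNA13, to whose counts reads of the transgene can add, was at 820, 886 and 747 CPM (read counts scaled to a common library size with TMM) in pBabe-GNA13 and at 76.7, 69.4 and 65.4 CPM in pBabe-vector, a log2 fold change of 3.54 ± 0.12 (SE, edgeR adjusted p = 9.12e-05). The luminal markers were all in the table (9 of 9), with summed levels of 6420 to 9170 CPM in pBabe-GNA13 and 5550 to 8230 CPM in pBabe-vector. The 3 basal markers summed to 4.49 to 8.26 CPM in pBabe-GNA13 and 2.38 to 2.48 CPM in pBabe-vector, with KRT5 at 0 in replicate 2 of both lines and TP63 at most 0.145 CPM in any library. KRT14 was at 4.26, 4.49 and 4.39 CPM in pBabe-GNA13 and at 1.81, 2.48 and 1.81 CPM in pBabe-vector. These groups did not overlap, as in 14.1% of all genes. The 4 fibroblast markers summed to 17.3 to 24.8 CPM and 11.6 to 23.5 CPM, the endothelial marker VWF was at 14.6 to 30.5 CPM and 6.54 to 20.6 CPM, and the neuroendocrine marker SYP was at 2.53 to 3.40 CPM and 4.22 to 4.46 CPM. The part of these markers in the results below was not tested. In bulk RNA, fewer cells of a type and less RNA per cell cannot be told apart.

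In each line, 1 library carries the tag std in its column heading, whose meaning is not stated in the sources used here. It is replicate 1 of pBabe-vector. In pBabe-GNA13 the heading of this library also holds the number 2, as another heading of that line does. Its replicate number is thus not fixed, and it is called the std library. The libraries tagged std were paired by the tag and the others by number, which gives 3 pairs across the lines: the std pair, replicate 2 and replicate 3. Values of a gene are given in this order throughout.

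The sequences before the start sites are shown first for the genes with a window whose levels differed most between cultures, SRM, AMD1 and SAT1, and for ODC1, the first enzyme of the pathway. They are RefSeq windows on GRCh38.p14, at most 250 bases, read 5′ to 3′ on the strand of the gene, and they hold bases before the transcription start alone. Where the gene model used for the positions below starts further upstream than RefSeq, the transcribed bases were cut off, 15 for AMD1 and 2 for SRM, so that those windows end just before that start. RefSeq gives 3 windows for AMD1 and 2 for ODC1, of which the first listed is shown. The capitals mark matches, on either strand, to 3 motifs that do not overlap here: the E-box CACGTG (bound by MYC and MAX, among others), the TATA core TATAA and the CCAAT box CCAAT. The SRM window is chr1:11060021-11060268 on the minus strand, that of AMD1 is chr6:110874535-110874769 on the plus strand, that of SAT1 is chrX:23782923-23783172 on the plus strand and that of ODC1 is chr2:10448328-10448577 on the minus strand.
SRM: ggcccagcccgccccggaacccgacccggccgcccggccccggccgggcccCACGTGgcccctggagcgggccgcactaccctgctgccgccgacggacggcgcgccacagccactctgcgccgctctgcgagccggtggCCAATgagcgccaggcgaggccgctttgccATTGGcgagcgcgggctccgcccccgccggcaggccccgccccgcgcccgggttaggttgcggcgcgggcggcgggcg
AMD1: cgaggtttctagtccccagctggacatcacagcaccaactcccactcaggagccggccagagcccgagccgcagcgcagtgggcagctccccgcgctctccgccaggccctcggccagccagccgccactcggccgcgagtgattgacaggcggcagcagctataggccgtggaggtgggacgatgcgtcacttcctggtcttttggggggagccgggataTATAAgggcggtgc
SAT1: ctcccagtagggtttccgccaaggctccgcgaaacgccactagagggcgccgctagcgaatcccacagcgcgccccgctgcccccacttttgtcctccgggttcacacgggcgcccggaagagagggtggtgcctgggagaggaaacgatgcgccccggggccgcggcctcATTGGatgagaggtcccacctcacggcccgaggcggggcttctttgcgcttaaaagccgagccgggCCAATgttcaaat
ODC1: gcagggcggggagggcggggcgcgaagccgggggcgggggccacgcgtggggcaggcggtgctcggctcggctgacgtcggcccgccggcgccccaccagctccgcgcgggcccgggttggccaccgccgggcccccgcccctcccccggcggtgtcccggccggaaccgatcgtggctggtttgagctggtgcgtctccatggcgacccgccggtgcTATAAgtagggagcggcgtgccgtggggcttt

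Positions of the matches are counted back from the last base of the printed window, which is base 1. SRM held the E-box at 197 to 192 and CCAAT boxes at 108 to 104 and 78 to 74. AMD1 held a TATA core at 14 to 10 and ODC1 held a TATA core at 32 to 28. SAT1 held CCAAT boxes at 79 to 75 and 13 to 9. Of the windows not shown, that of ODC1 held 1 E-box and neither other motif, 1 of AMD1 held a TATA core and the other a CCAAT box. Of 35116 promoter windows of 250 bases in the same RefSeq table, 6.34% held CACGTG, 18.9% held TATAA and 32% held CCAAT on either strand. Windows were given for 7 of the 10 members. Of the other members with a window, SMS and OAZ1 held only CCAAT boxes and OAZ2 held none of the 3 motifs. A match describes the letters in a window and is no measurement of binding.

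The members covered a wide range of levels. Per length, as RPKM over the canonical transcript, OAZ1 was the most abundant member, with a mean of 616 RPKM in pBabe-GNA13 and 620 RPKM in pBabe-vector (530 to 691 over the 6 libraries). AMD1 followed at 237 and 302 RPKM (191 to 385), then ODC1 at 210 and 212 RPKM (182 to 225) and SRM at 185 and 198 RPKM (138 to 260). The next in order were SMS at 117 and 120 RPKM (101 to 133), SAT1 at 83.5 and 75.2 RPKM (44.2 to 115), AZIN1 at 59.1 and 63.9 RPKM (56.4 to 67.6) and OAZ2 at 56.7 and 62.4 RPKM (50.1 to 70.1). The oxidases stood lowest. SMOX was at 4.55 and 4.53 RPKM (2.56 to 6.07) and PAOX was at 2.46 and 2.73 RPKM (2.00 to 3.34). The ranges of neighbours in this order overlapped, except between OAZ1 and AMD1, between SRM and SMS and between OAZ2 and SMOX.

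The comparison of pBabe-GNA13 with pBabe-vector asks which of these genes differ in RNA level when Gα13 is raised. None of the 10 members passed the test between the lines (edgeR's quasi-likelihood test, line as the only term, adjusted over all genes), where 24 of 17297 genes (0.139%) did. Leaving out 1 library lowered that 24 to between 2 (without the pBabe-GNA13 std library) and 15 (without replicate 2 of pBabe-GNA13), with 0 members called each time. None reached an unadjusted p under 0.05 either, which 1463 of all genes (8.46%) did. DESeq2 and limma-trend each called 0 members, where they called 271 and 5 of all genes. The log2 fold change was below 0 for 8 members and above 0 for 2, with a median of -0.07 against -0.0013 over all genes. When the library pairs entered as a block, 3407 genes (19.7%) were called, and 1 of the 10 members was among them: AMD1, which was lower in pBabe-GNA13. In this blocked fit 4 members had an unadjusted p under 0.05, as did 5272 of all genes (30.5%). No member had its 3 pBabe-GNA13 values apart from its 3 pBabe-vector values, as 2437 of all genes (14.1%) did. A p above the threshold does not show that levels were equal, and the SE beside each fold change gives the precision.

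**Figure D1:**
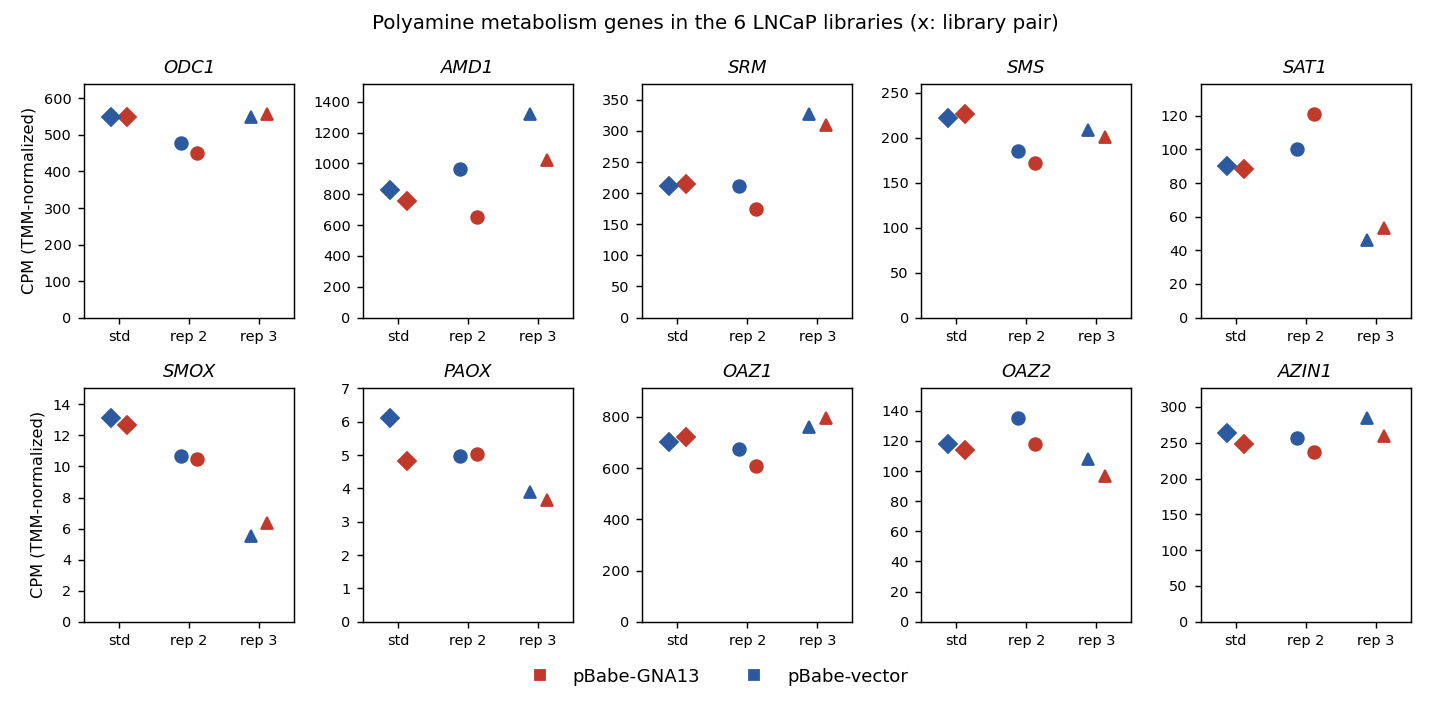
Level of each of the 10 members in CPM (TMM-normalized, y axes from 0) in every library, by library pair on the x axis, with 1 point per library (red for pBabe-GNA13, blue for pBabe-vector, diamonds for std, circles for replicate 2, triangles for replicate 3). The libraries of a pair sit close together for most members, while SAT1 is at 121 and 100 CPM in replicate 2 and at 53.4 and 46.4 CPM in replicate 3.

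ODC1 (chr2:10439968-10448327 on GRCh38, minus strand) was at 548, 451 and 557 CPM in pBabe-GNA13 and at 550, 478 and 550 CPM in pBabe-vector. Replicate 2 was the lowest library in both lines, and the groups overlapped. The means were 519 ± 58.6 CPM and 526 ± 41.8 CPM (SD, n = 3 each), and the log2 fold change was -0.02 ± 0.12 (SE, edgeR adjusted p = 1). Among the synthesis enzymes, ODC1 had the smallest difference between the lines.

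AMD1 (chr6:110874770-110898879, plus strand) was at 757, 653 and 1020 CPM in pBabe-GNA13 and at 825, 961 and 1320 CPM in pBabe-vector. It was lower in the pBabe-GNA13 library of all 3 pairs, by -0.13, -0.56 and -0.36 on the log2 scale, but the groups overlapped because replicate 3 was high in both lines. The means were 811 ± 191 CPM and 1030 ± 254 CPM. Without a block, the log2 fold change was -0.35 ± 0.22 (SE, edgeR adjusted p = 0.80, exact permutation p = 0.30, where 0.10 is the smallest p that 3 against 3 libraries allow). With the library pairs as a block it was -0.35 ± 0.06 (edgeR adjusted p = 8.01e-05), and its size ranged from -0.25 without the pair of replicate 2 to -0.46 without the std pair. The same block in DESeq2 gave an adjusted p of 0.0918 and in limma-trend 0.139, so the blocked call was made by edgeR and not by these tools. AMD1 has processed pseudogenes, none of which is a row of the table. Whether reads from these copies were counted for AMD1 was not tested.

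SRM (chr1:11054584-11060020, minus strand) was at 215, 174 and 309 CPM in pBabe-GNA13 and at 211, 211 and 327 CPM in pBabe-vector. Replicate 3 was the highest library in both lines. The means were 233 ± 68.9 CPM and 250 ± 66.9 CPM, and the log2 fold change was -0.10 ± 0.25 (SE, edgeR adjusted p = 0.991). SMS (chrX:21940709-21994837, plus strand) was at 226, 172 and 201 CPM and at 222, 185 and 208 CPM, with the std library highest and replicate 2 lowest in both lines. Its means were 200 ± 27.0 CPM and 205 ± 18.7 CPM, and its log2 fold change was -0.04 ± 0.13 (SE, edgeR adjusted p = 1). The differences of SRM within the pairs were 0.03, -0.28 and -0.08 on the log2 scale, and those of SMS were 0.03, -0.10 and -0.05, so neither kept 1 direction over the 3 pairs. Without the std pair, the blocked fit called SRM lower in pBabe-GNA13 (-0.18, edgeR adjusted p = 0.0227), and with all pairs it did not (adjusted p = 0.185). Processed pseudogenes of both genes are known, and none is a row of the table.

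Of the catabolic enzymes, SAT1 (chrX:23783173-23786210, plus strand) was at 88.3, 121 and 53.4 CPM in pBabe-GNA13 and at 90.1, 100 and 46.4 CPM in pBabe-vector. Replicate 2 was the highest and replicate 3 the lowest library in both lines. The means were 87.5 ± 33.8 CPM and 78.9 ± 28.6 CPM, and the log2 fold change was 0.15 ± 0.35 (SE, edgeR adjusted p = 0.989). Within the pairs the differences were -0.03, 0.27 and 0.20 on the log2 scale. With the block alone SAT1 was not called (edgeR adjusted p = 0.0754), but it was called higher in pBabe-GNA13 with the block and chromosome-centred values (0.20, edgeR adjusted p = 0.0214) and with the block and offsets for GC content and length (0.18, edgeR adjusted p = 0.0314), and when the std pair was left out (0.25, edgeR adjusted p = 0.00196). SAT1 shares its position with an overlapping annotated gene on the same strand, so strand alone cannot separate their reads. How the counting used strand is not given in the sources used here.

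SMOX (chr20:4120980-4187747, plus strand) was at 12.7, 10.5 and 6.37 CPM in pBabe-GNA13 and at 13.1, 10.7 and 5.55 CPM in pBabe-vector. The std library was highest and replicate 3 lowest in both lines. The means were 9.84 ± 3.21 CPM and 9.81 ± 3.88 CPM, with a log2 fold change of 0.0019 ± 0.35 (SE, edgeR adjusted p = 1). Over the 318 genes of chromosome 20 with a mean log2 CPM of at least 1, the median was -0.21. With chromosome-centred values SMOX was at 0.21, and at 0.23 with the block (edgeR adjusted p = 0.139). PAOX (chr10:133379261-133391694, plus strand) was at 4.82, 5.02 and 3.66 CPM and at 6.10, 4.96 and 3.90 CPM, which made it the lowest of the members, with 1026 counts over the 6 libraries. Its means were 4.50 ± 0.733 CPM and 4.99 ± 1.10 CPM, and its log2 fold change was -0.15 ± 0.22 (SE, edgeR adjusted p = 0.967). The std pair held the widest PAOX difference, at -0.34 on the log2 scale. An annotated gene overlaps PAOX on the same strand.

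Among the regulators of ornithine decarboxylase, OAZ1 (chr19:2269509-2273490, plus strand) encodes antizyme 1, whose full-length protein is made by a ribosomal frameshift that polyamines promote. It was at 721, 608 and 794 CPM in pBabe-GNA13 and at 702, 673 and 760 CPM in pBabe-vector. Replicate 2 was lowest and replicate 3 highest in both lines. The means were 708 ± 93.3 CPM and 711 ± 44.4 CPM, and the log2 fold change was -0.01 ± 0.13 (SE, edgeR adjusted p = 1). Its sign turned with the filter on low counts and with 2 of the other scalings, at sizes of at most 0.02. JSRP1 overlaps OAZ1 on the opposite strand, and a further annotated gene overlaps it on the same strand. A processed pseudogene of OAZ1 is known and is not a row of the table.

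OAZ2 (chr15:64687573-64703281, minus strand), another antizyme, was at 114, 118 and 96.9 CPM in pBabe-GNA13 and at 118, 135 and 108 CPM in pBabe-vector. It was lower in pBabe-GNA13 in all 3 pairs, by -0.05, -0.20 and -0.16 on the log2 scale, and the groups overlapped. The means were 110 ± 11.2 CPM and 121 ± 13.8 CPM, and the log2 fold change was -0.14 ± 0.12 (SE, edgeR adjusted p = 0.902, and 0.0697 with the block). Without the std pair the blocked fit called OAZ2 lower (-0.17, edgeR adjusted p = 0.0393). AZIN1, the antizyme inhibitor, was at 248, 237 and 260 CPM and at 263, 257 and 284 CPM, the narrowest spread of any member. It too was lower in pBabe-GNA13 in all 3 pairs, by -0.09, -0.12 and -0.13 on the log2 scale, with the pBabe-GNA13 maximum inside the pBabe-vector range. The means were 248 ± 11.6 CPM and 268 ± 14.0 CPM, and the log2 fold change was -0.11 ± 0.09 (SE, edgeR adjusted p = 0.889, and 0.127 with the block). Annotated genes overlap OAZ2 on the opposite strand and AZIN1 on both strands.

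**Figure D2:**
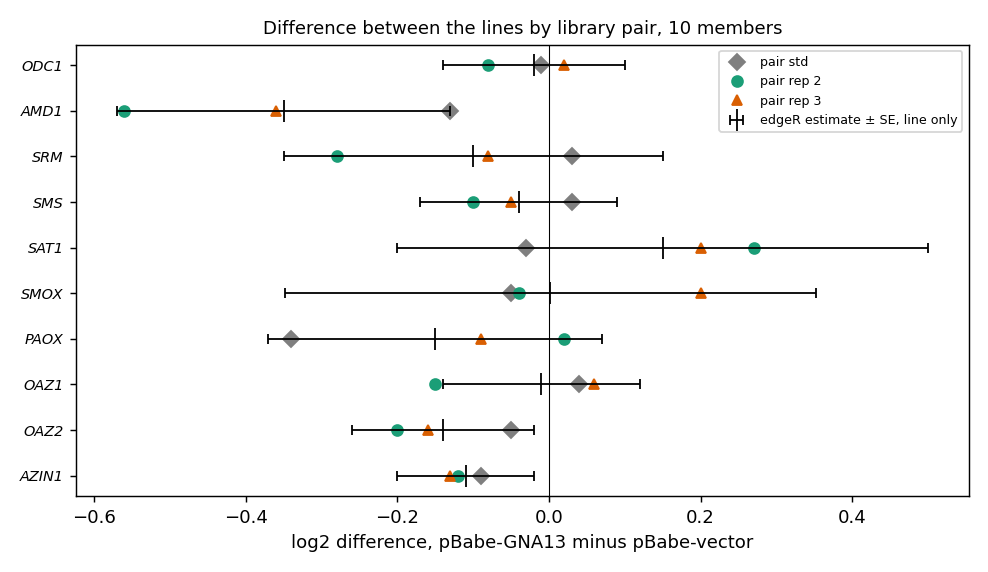
Difference between the lines for each of the 10 members, in log2 units on the x axis (pBabe-GNA13 minus pBabe-vector), with 1 point per library pair and the edgeR estimate with its SE (line as the only term) as a black bar. All 3 points of AMD1, OAZ2 and AZIN1 lie below 0, and the widest single difference is that of AMD1 in replicate 2, at -0.56.

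For most members the library pair took more of the variation than the line did. The sum of squares of log2 CPM over the 6 libraries was split into line, library pair and remainder, as a description without a test. The split was made for the members alone, so it does not show whether they differ from other genes. The library pair took the largest share for 10 of 10 members, from 51.2% (AZIN1) to 98.4% (SMOX). The pair has 2 degrees of freedom and the line 1. Per degree of freedom the pair was the larger for 9 of the 10 members, and the line was for AZIN1. The line took 47.7% for AZIN1, 28.6% for AMD1, 22.1% for OAZ2 and 7.83% for PAOX, and between 0.143% (SMOX) and 2.91% (SRM) for the other members.

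Replicate 3 was then compared with replicate 2, with the line as a term, a contrast chosen once the data were known. The labels do not say what differed between these cultures. Of the 10 members, 8 were called, 5 higher and 3 lower in replicate 3, where 7276 of all genes (42.1%) were called. Without the std libraries 9 members were called, against 7757 of all genes (44.8%), and DESeq2 called 8, against 5497 (31.8%). The median log2 difference was 0.17 over the members and 0 over all genes.

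All 4 synthesis enzymes were higher in replicate 3. SRM was higher by 0.83 in pBabe-GNA13 and 0.63 in pBabe-vector on the log2 scale (0.72 ± 0.07 over both lines, SE, edgeR adjusted p = 1.97e-09). AMD1 was higher by 0.65 and 0.45 (0.55 ± 0.07, edgeR adjusted p = 5.94e-07). ODC1 was higher by 0.30 and 0.20 (0.25 ± 0.06, edgeR adjusted p = 0.0012), and SMS by 0.22 and 0.17 (0.19 ± 0.06, edgeR adjusted p = 0.0144). The enzymes of catabolism had the opposite sign. SAT1 was lower in replicate 3 by -1.18 in pBabe-GNA13 and -1.11 in pBabe-vector (-1.14 ± 0.07, edgeR adjusted p = 6.72e-13), and SMOX by -0.71 and -0.95 (-0.83 ± 0.13, edgeR adjusted p = 6.89e-06). PAOX differed by -0.45 and -0.34 and did not pass the test (-0.40 ± 0.17, edgeR adjusted p = 0.0607).

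The antizymes split. OAZ1 was higher in replicate 3 by 0.38 and 0.18 (0.28 ± 0.06, edgeR adjusted p = 0.000713) and OAZ2 was lower by -0.28 and -0.32 (-0.30 ± 0.06, edgeR adjusted p = 0.000353). AZIN1 differed by 0.13 and 0.14 (0.14 ± 0.06, edgeR adjusted p = 0.0696), and it was the member that passed when the std libraries were left out (edgeR adjusted p = 0.0298). Each of the 10 members had the same sign in both lines. Luminal markers differed between the same cultures: KLK3, the gene of prostate-specific antigen, was at 4200 and 3780 CPM in replicate 2 and at 2440 and 1840 CPM in replicate 3, and TMPRSS2 was at 1100 and 969 CPM and at 455 and 415 CPM. The part of these markers in the members' differences was not tested.

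**Figure D3:**
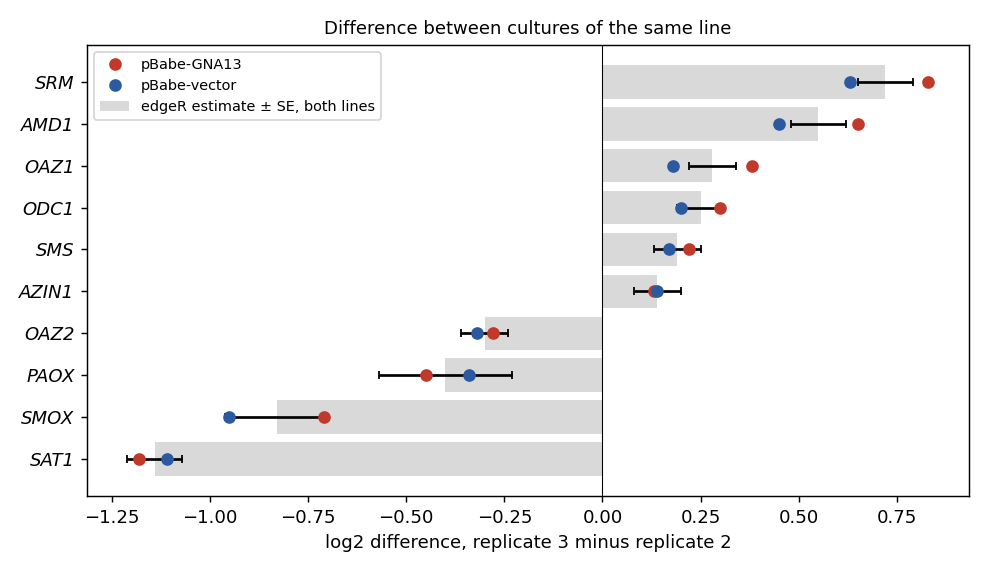
Difference between replicate 3 and replicate 2 in log2 units (x axis) for each of the 10 members, with 1 point per line (red for pBabe-GNA13, blue for pBabe-vector) and grey bars for the edgeR estimate over both lines with its SE. The 4 synthesis enzymes, OAZ1 and AZIN1 lie above 0, and SAT1 lies lowest at -1.14.

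The wider set of polyamine-related genes, listed by role, held 43 genes, of which 37 were rows of the table. Without a block none of them was called by edgeR or limma-trend, which called 24 and 5 of all genes. In edgeR 5 of the 37 had an unadjusted p under 0.05, against 8.46% of all genes. DESeq2 called 2, EIF5A2 (adjusted p = 1.34e-05) and AHCY (adjusted p = 0.00091), where it called 271 of all 17297 genes. With the library pairs as a block 11 of the 37 were called, 4 higher and 7 lower in pBabe-GNA13, against 19.7% of all genes. Of these 11, DESeq2 with the block called 7 (ADI1, AHCY, ARG2, ASS1, EIF5A2, MAT1A and SLC7A2), where it called 2000 of all genes. With the block limma-trend called 3 (ADI1, AHCY and EIF5A2), where it called 433 of all genes. The median log2 fold change of the list was -0.0013, the same as over all genes. The CPM values of 5 listed genes did not overlap between the lines, against 14.1% of all genes: ARG2, ADI1 and MAT2A were higher and AHCY and EIF5A2 were lower in pBabe-GNA13.

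Of the genes of arginine and ornithine supply, 7 of 9 were in the table. The blocked fit called 1 higher and 3 lower, against 19.7% of all genes called. ARG2, the mitochondrial arginase that makes ornithine, was the most abundant of them per length in pBabe-GNA13 (61.3 RPKM, and 39.7 RPKM in pBabe-vector), and ASS1 was in pBabe-vector (56.7 RPKM, and 38.5 RPKM in pBabe-GNA13). ARG2 was at 120, 132 and 100 CPM in pBabe-GNA13 and at 87.4, 83.1 and 57.0 CPM in pBabe-vector, with no overlap. The log2 fold change was 0.63 ± 0.18 (SE, edgeR adjusted p = 0.367) without and 0.64 ± 0.06 (edgeR adjusted p = 6.87e-09) with the block. ASS1, which makes argininosuccinate, was lower in all 3 pairs (62.6, 86.5 and 28.1 CPM against 82.6, 132 and 45.3 CPM), with -0.56 ± 0.06 in the blocked fit (edgeR adjusted p = 3.86e-08). SLC7A2, a transporter of cationic amino acids, was at -0.36 ± 0.06 (edgeR adjusted p = 3.73e-05), and OAT, ornithine aminotransferase, at -0.34 ± 0.11 (edgeR adjusted p = 0.0229), both in the blocked fit. OAT was not called without the std pair or without the pair of replicate 2.

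All 11 genes of the methionine cycle and of methylthioadenosine salvage were in the table. The blocked fit called 2 higher and 2 lower, against 19.7% of all genes called. AHCY, which cleaves S-adenosylhomocysteine, was the most abundant per length (210 and 302 RPKM). It was at 461, 471 and 425 CPM in pBabe-GNA13 and at 635, 706 and 606 CPM in pBabe-vector, so that the groups stood apart. Its log2 fold change was -0.52 ± 0.11 (SE, edgeR adjusted p = 0.204) without and -0.52 ± 0.05 (edgeR adjusted p = 1.3e-08) with the block. AHCY lies on chromosome 20, where the median over the 318 genes with a mean log2 CPM of at least 1 was -0.21. With chromosome-centred values the blocked fit gave -0.31 (edgeR adjusted p = 6.13e-05). ADI1, a dioxygenase that recycles the methylthioadenosine left by polyamine synthesis, was at 179, 171 and 157 CPM and at 145, 135 and 119 CPM, with 0.35 ± 0.05 in the blocked fit (edgeR adjusted p = 1.37e-05). MTR, methionine synthase, was at 0.15 ± 0.05 (edgeR adjusted p = 0.0464) and MAT1A, a low-abundance methionine adenosyltransferase gene here (2.49 and 4.31 CPM on average), at -0.74 ± 0.17 (edgeR adjusted p = 0.00222), both with the block. MTR lost its call when any 1 pair was left out.

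The hypusine pathway uses spermidine to modify the translation factor eIF5A. EIF5A itself was the most abundant gene per length in the wider list (440 and 449 RPKM), with a log2 fold change of -0.03 ± 0.15 (SE, edgeR adjusted p = 1). Its paralog EIF5A2 was at 11, 9.37 and 8.55 CPM in pBabe-GNA13 and at 18.1, 17.2 and 16.6 CPM in pBabe-vector, with no overlap. EIF5A2 had a log2 fold change of -0.85 ± 0.14 (SE, edgeR adjusted p = 0.123) without and -0.85 ± 0.09 (edgeR adjusted p = 7.64e-08) with the block, and DESeq2 called it in both designs. Of the 4 genes of this pathway, EIF5A2 was the only 1 called with the block, against 19.7% of all genes.

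Among the transporters, 8 of 10 were in the table, and the blocked fit called 1 higher and 1 lower, against 19.7% of all genes. SLC3A2 was the most abundant per length (109 and 113 RPKM), with a log2 fold change of -0.04 ± 0.16 (SE, edgeR adjusted p = 1). The organic cation transporter genes SLC22A2 and SLC22A3, whose products carry polyamines among other cations, differed strongly between cultures. SLC22A2 was at 17.6, 8.11 and 0.959 CPM and at 13.3, 6.20 and 0.156 CPM, higher in pBabe-GNA13 in all 3 pairs (0.52 ± 0.15 in the blocked fit, edgeR adjusted p = 0.0156). SLC22A3 was at 267, 202 and 93.3 CPM and at 336, 284 and 94.2 CPM (-0.28 ± 0.06 in the blocked fit, edgeR adjusted p = 0.00167, and -0.18 without the pair of replicate 2). Between replicate 3 and replicate 2 the log2 difference was -3.67 for SLC22A2 and -1.35 for SLC22A3 (edgeR adjusted p = 4.13e-12 and 1.86e-13).

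The remaining roles held no call in either fit, where 0.139% of all genes were called without the block and 19.7% with it. SAT2 (68.9 and 71.0 RPKM) was the catabolic enzyme of the wider list in the table, with a log2 fold change of -0.04 ± 0.17, and OAZ3 (8.19 and 6.79 RPKM) was the more abundant of the other antizyme genes, at 0.27 ± 0.19 (SE, edgeR adjusted p = 0.839). MYC, which is known to drive transcription of ODC1 and SRM, was at 269, 331 and 239 CPM in pBabe-GNA13 and at 268, 308 and 214 CPM in pBabe-vector (0.09 ± 0.17, edgeR adjusted p = 0.985). MYC was lower in replicate 3 than in replicate 2 by -0.49 (edgeR adjusted p = 3.13e-07), where ODC1 and SRM were higher. The part of MYC in these differences was not tested. MYCN was at 0 in all 6 libraries.

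**Figure D4:**
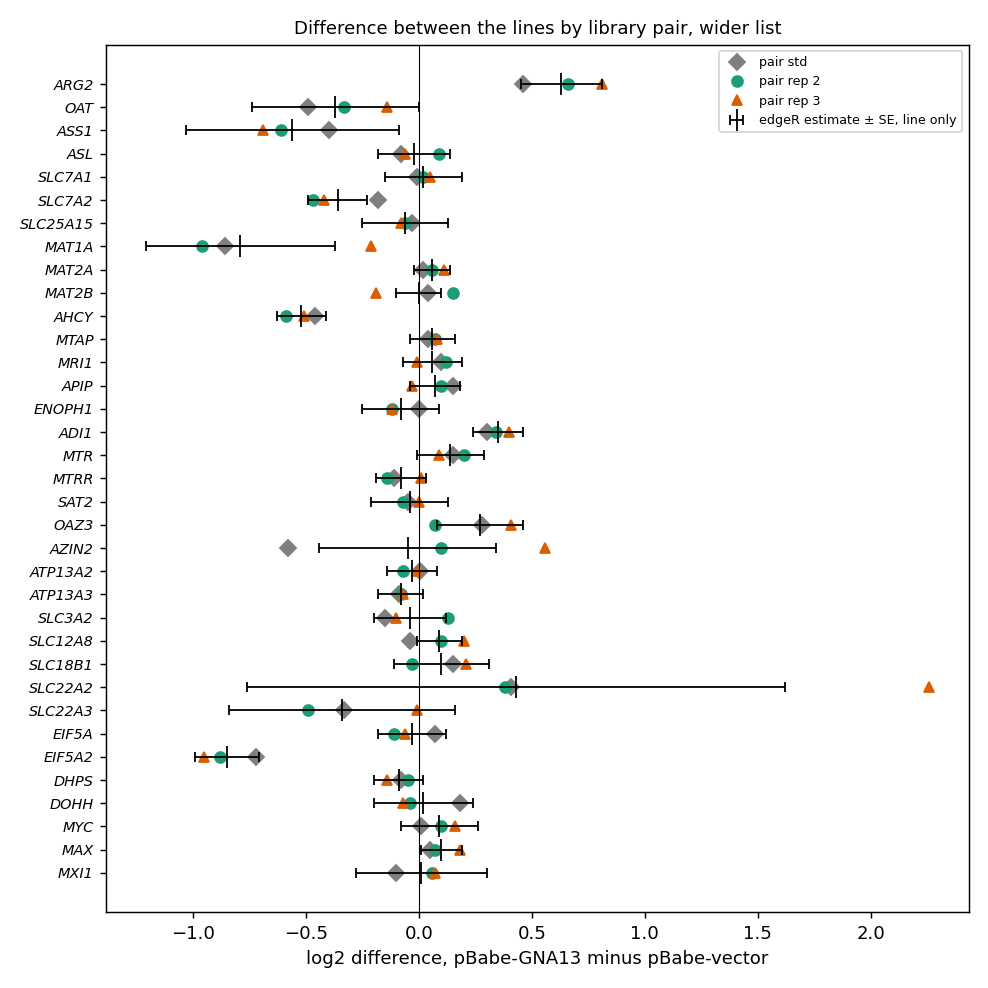
Difference between the lines for the genes of the wider list, in log2 units on the x axis (pBabe-GNA13 minus pBabe-vector), with 1 point per library pair and the edgeR estimate with its SE (line as the only term) as a black bar. ARG2 and ADI1 have all 3 points above 0 and AHCY and EIF5A2 all 3 below, while SLC22A2 reaches 2.26 in replicate 3 on very few counts, and SLC47A1 and MYCN, at or near 0 CPM, are left out.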

How the data were processed

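Total RNA of LNCaP cells, 3 libraries per line, was sequenced. The authors checked reads with FastQC 0.11.7, aligned them with STAR and summed them over genes in featureCounts. The deposited values are whole-number read counts for 17297 gene symbols. The deposited table is named for CPM, but every value is a whole number and library totals differ, so the values were treated as counts. Columns were matched to samples by heading, and 0 columns were left out.

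The counts were scaled by TMM. The quasi-likelihood test of edgeR 4.0.16, run in R 4.3.3, covered every gene of the table, with Benjamini-Hochberg adjustment and calls at an adjusted p under 0.05. Log2 CPM used a prior count of 2. RPKM used canonical transcript lengths of the GRCh38 annotation given for this work, in which 79.2% of symbols matched directly and 3.93% by an older symbol. Exact two-sided permutation tests used SciPy 1.17.1. Without the block, the p-values measure the spread between cultures of 1 stable line per condition. With the block they measure the spread left once line and library pair are taken out. The same holds for replicate 3 against replicate 2, where the lines stand in for replicates of each culture number.

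Deviations from the group means correlated at r = 0.659, 0.807 and 0.888 within the 3 library pairs and at -0.736 to 0.125 between other libraries (12778 genes), so the tags and numbers were taken to pair the libraries. Within a line, chi-square per degree of freedom was 71.5 to 114, so no library was a copy of another.

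The members and lists were chosen with earlier results of these data known. Named are all members and, of the wider list, the genes called in either fit and the most abundant per length of each role. MAT2A and MYCN were added after their values were seen. Listed genes not analysed here include ARG1, AGMAT, SATL1, AOC1 and ATP13A4, and the markers PTPRC, CD3E, CD68, MS4A1, PECAM1, CHGA and INSM1. Alternatives were the library pairs as a block, DESeq2 1.42.0, limma-trend (limma 3.58.1), other size factors, a minimum mean log2 CPM of 1, no abundance trend, chromosome centring, offsets for GC content and length, and leaving out libraries. The newer quasi-likelihood method, DESeq2 and limma-trend with the block, and the contrast of replicate 3 with replicate 2 were chosen after seeing the data.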

Additional observations from a re-analysis of the deposited data

How the results depend on the processing

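The count of members called was 0 in every fit without the block. It was 1 with the replicate block, 2 with the block and chromosome centring, 2 with the block and GC content and length, 1 with the block and the newer quasi-likelihood method, 0 with the block in DESeq2 or limma-trend, and 1 to 4 with the block and a pair left out. AMD1 was the member called with the block (-0.35), with the block and chromosome centring (-0.31), with the block and GC content and length (-0.34) and with the block and the newer method (-0.35), and at -0.46, -0.25 and -0.33 in blocked fits that lacked the std, replicate 2 and replicate 3 pairs in turn. Chromosome centring (0.20) and GC content and length (0.18) also brought SAT1 past the threshold with the block. Without the std pair the blocked fit called SRM (-0.18), SAT1 (0.25) and OAZ2 (-0.17) as well as AMD1. The wider list had 11 calls with the replicate block, 9 with the block and chromosome centring, 10 with GC content and length, 10 with the newer method, 7 with the block in DESeq2, 3 in limma-trend, 2 in DESeq2 without the block, and 9 to 10 with the block and a pair left out. Over all genes 24 were called; the count was 3407 with the replicate block, 2412 and 3370 with the block and chromosome centring or GC content and length, 3129, 2000 and 433 with the block in the newer method, DESeq2 and limma-trend, 271 in DESeq2, 5 in limma-trend, 10 with the filter, 2 to 15 without 1 library and 3266, 2550 and 2250 in blocked fits lacking the std, replicate 2 and replicate 3 pairs in turn.

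Signs turned for OAZ1 (0.01 with the filter, 0.0035 with chromosome centring, 0.02 with the block and GC content and length) and SMS (0.01 with chromosome centring, with or without the block). With the block, leaving out the pair of replicate 2 gave 0.0021 for ODC1 and 0.05 for OAZ1, and leaving out that of replicate 3 gave -0.04 for SMOX, each of the opposite sign. Without 1 library or 1 pair, log2 fold changes ranged from -0.55 to -0.14 for AMD1, -0.14 to -0.07 for AZIN1, -0.21 to -0.05 for OAZ2, -0.09 to 0.09 for OAZ1, -0.08 to 0.07 for ODC1, -0.30 to 0.02 for PAOX, -0.15 to 0.42 for SAT1, -0.28 to 0.27 for SMOX, -0.13 to 0.06 for SMS and -0.35 to 0.14 for SRM. Of the fold changes under alternatives, 185 kept their direction and side of the threshold, 12 passed it and 23 changed sign. Except where stated, the cause was not tested. Depth limits PAOX and SMOX most, with 1026 and 2142 counts over the 6 libraries, and counting error is the only error that depth covers.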
